A study of Capra hircus with 6 samples.

Results

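Integrins and laminins were followed in dermal papilla cells of secondary hair follicles (SHF-DPCs) from cashmere goats, cultured with or without all-trans retinoic acid (ATRA). The genes were chosen by name, as every listed row whose identifier or annotated symbol is an integrin α subunit, an integrin β subunit, or a laminin α, β, or γ chain. This rule used no expression value and gave 38 of the 15944 genes listed, of which 24 are integrin and 14 laminin genes. Of these, 34 carry the symbol as their identifier, and 4 are rows under a LOC number that the annotation assigns to LAMB2 (LOC102183372 and LOC102179246), LAMA5 (LOC108637403), and ITGAD (LOC102180368).

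The control group held 3 libraries of primary, wild-type SHF-DPCs of Capra hircus kept in standard medium without ATRA, and the ATRA-treated group held 3 libraries of the same kind of culture exposed to ATRA at 100 µM for 24 h. The study's methods state that the cells came from the scapular skin of adult Albas goats aged 3 years and that 3 animals supplied the sequenced cultures, without stating which libraries share an animal. Cells were expanded over several passages before use. For the viability assay the methods describe ATRA prepared in complete medium and controls given medium alone, and all 6 libraries carry the same batch label. Expression was read as polyadenylated RNA counted per gene, with totals of 35532339 to 38012771 counts per library. Because cells were lysed in bulk, fewer cells of a type and less RNA per cell cannot be told apart. The labelled cell type was examined against its markers. In the control libraries the mesenchymal genes VIM, COL1A1, and COL1A2 were abundant, at means of 19158, 27440.0, and 28514 normalized CPM (the count over the scaled size of its library), and ACTA2, one of the markers used by the study, had 6582 ± 462 CPM (SD, n = 3) without ATRA and 8.37 ± 0.829 with it. Reads on PROM1, the gene of the other marker CD133, amounted to 1, 0, and 0 counts in the control libraries and 0, 0, and 0 with ATRA, and ALPL, BMP6, and CORIN were also at 0 or 1 count in every library. The study stained both of its markers as proteins by immunofluorescence and reported them positive in purified SHF-DPCs. RNA counts do not measure those proteins.

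Integrins are transmembrane receptors built from 1 α and 1 β subunit, and a subunit reaches the cell surface only with its partner. Outside the cell they bind collagens, laminins, or proteins with an RGD sequence such as fibronectin, and inside it their tails are tied to actin by talin, kindlin, and vinculin. Laminins are trimers of an α, a β, and a γ chain that form the sheet of the basement membrane, the layer that surrounds the hair follicle and separates the dermal papilla from the epithelial matrix cells. Integrins containing β1 and the protein dystroglycan anchor cells to that sheet.

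Members of both families rose and fell with ATRA. Of the 38 genes, 27 passed the expression filter of edgeR and were tested, with 25 of these (92.6%) past the threshold beside 79.7% of all genes. At a Benjamini-Hochberg adjusted p under 0.05 in edgeR's quasi-likelihood test, 10 of the 27 (37%) were higher with ATRA, beside 40.9% of all 12588 genes tested. Another 15 (55.6%) were lower, beside 38.7% of all genes. Scaling by library size only changed this split to 13 higher and 12 lower, and that of all genes from 5151 higher and 4877 lower to 7921 and 2861. With the thresholds of the study's methods for a differentially expressed gene (DEG), an absolute log2 fold change (log2FC) above 1 and an unadjusted p under 0.05, 18 members were DEGs (66.7%, beside 31% of all genes), 8 higher (13.7% of all genes) and 10 lower (17.3%). The control and ATRA libraries did not overlap for 25 of the 27, beside 80.1% of all genes. The median log2FC was -0.59 over the members and 0.0376 over all genes. It was -0.65 over the 18 integrin genes tested, with 5 higher and 11 lower, and 0.65 over the 9 laminin genes tested, with 5 higher and 4 lower. The laminin median depended on rows with few reads. Requiring a CPM of at least 1 in 3 libraries left 6 laminin genes, 3 higher and 3 lower, with a median log2FC of 0.0469. The integrin median was then -0.635. By R's t.test function the laminin median was 0.302. With library size only the integrins were 8 higher and 9 lower (median log2FC -0.17), the laminins were 5 higher and 3 lower (median log2FC 1.13), and the median of all members was -0.11. For all genes the median rose by 0.48 when libraries were scaled by their size only, and the direction of ITGB5 turned under that scaling.

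Among the α subunits that bind collagen, ITGA1 and ITGA11 fell and ITGA10 rose. ITGA1, the α1 subunit that binds basement membrane collagen, had 216, 230.5, and 235 normalized CPM in the control libraries and 16.2, 18.8, and 17.3 in the ATRA libraries. Its level was 13.0-fold lower with ATRA (log2FC -3.70, standard error 0.0706, edgeR adjusted p = 8.93e-19). ITGA11, the fibroblast receptor for fibrillar collagen, had 44.6, 45.1, and 47.9 CPM without ATRA and 8.47, 8.91, and 8.70 with it. The fall was 5.27-fold (log2FC -2.40, standard error 0.0790, edgeR adjusted p = 2.53e-15), with all ATRA libraries below all control libraries, as for ITGA1. ITGA10, a collagen receptor best known from cartilage, moved the other way, from 0.870, 0.742, and 1.12 to 4.90, 4.60, and 4.88 CPM. It was 5.25-fold higher (log2FC 2.39, standard error 0.195, edgeR adjusted p = 2.18e-09), on 27, 24, and 36 control counts. The fourth collagen receptor, ITGA2, was not tested, with 4, 2, and 6 counts in the control libraries and 0, 2, and 1 with ATRA. PELO, annotated inside ITGA1, rose (log2FC 0.391), against the fall of ITGA1, and how reads on overlapping genes or on each strand were assigned is not stated.

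The same contrast was read without any scaling, as a ratio of counts within each library. This ratio and 4 others were chosen after the values were seen, and only its change can be read, because the genes differ in length. ITGA10 counts were 0.0195, 0.0165, and 0.0234 times the ITGA11 counts in the control libraries and 0.579, 0.516, and 0.561 times with ATRA. The change was 28.2-fold, and the groups did not overlap (exact permutation test, two-sided, p = 0.1, adjusted p = 0.1 over 5 ratios, the smallest that 3 libraries against 3 allow). In all 5 ratios the genes had moved in opposite directions without overlap, so this p was fixed by the choice of the genes.

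**Figure D1:**
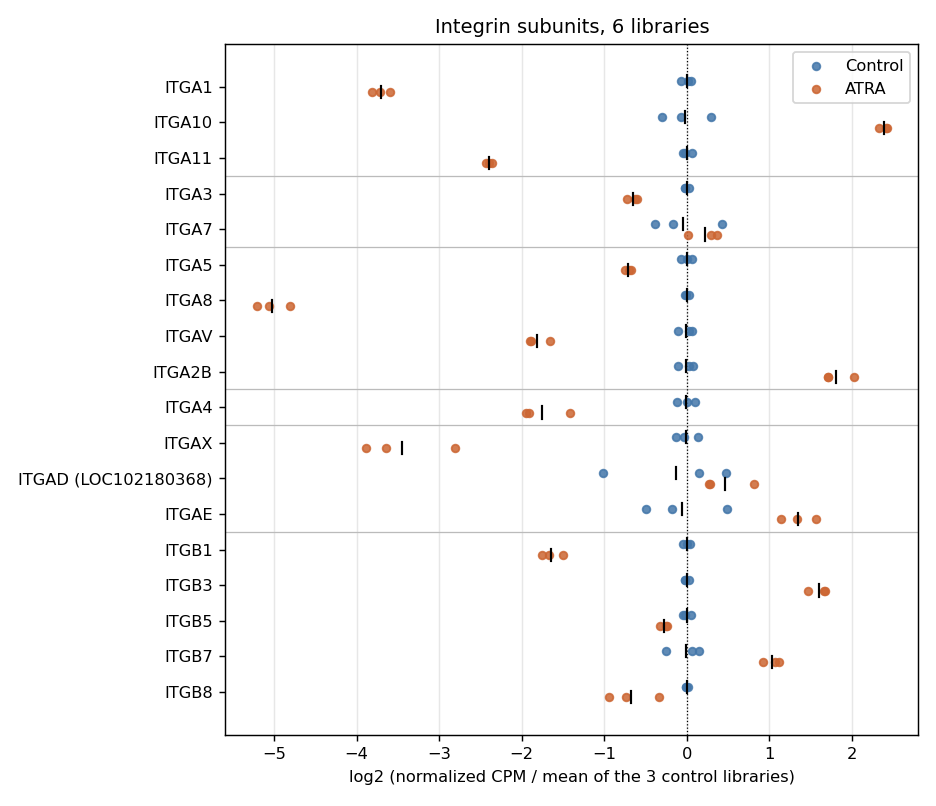
Each row is an integrin gene that was tested, each point a library, and the short vertical line the mean of the 3 log2 values of a group. The horizontal axis is the log2 ratio of normalized CPM to the mean of the control libraries of that gene, so levels of different genes are not compared, and grey lines part the functional classes. The ATRA libraries of ITGA8, ITGA1, ITGAX, and ITGA11 lie farthest to the left and those of ITGA10 farthest to the right, while ITGA7 and ITGAD are the genes whose groups overlap.

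Among receptors for RGD proteins, ITGA8 had the largest fall of all tested members, while ITGA2B rose. ITGA8, the α8 subunit that binds nephronectin, had 490.3, 484, and 503 CPM in the control libraries. With ATRA it had 14.7, 17.6, and 13.3, which was 32.3-fold lower (log2FC -5.02, standard error 0.0856, edgeR adjusted p = 2.60e-19). ITGAV, the αv subunit shared by several receptors for vitronectin and latent TGF-β, fell from 377, 424, and 414 to 110.0, 129, and 108 CPM (log2FC -1.81, standard error 0.0709, edgeR adjusted p = 3.51e-14). The fibronectin receptor subunit ITGA5 fell less, from 350.3 ± 14.9 to 214 ± 5.20 CPM (SD, n = 3 each, log2FC -0.71, standard error 0.0555, edgeR adjusted p = 1.18e-09). ITGA2B, the α subunit of the platelet fibrinogen receptor, rose from 2.48, 2.19, and 2.40 to 9.60, 7.73, and 7.71 CPM, or 3.54-fold (log2FC 1.82, standard error 0.147, edgeR adjusted p = 1.78e-09). For each of these 4 genes the groups did not overlap. Of the platelet markers, 2 were tested. GP9 had 21, 10, and 15 counts without ATRA and 36, 22, and 53 with it, overlapping groups, and did not pass the test (log2FC 0.84, standard error 0.388, edgeR adjusted p = 0.0554), but was higher in 6 of 14 alternatives, the replicate block among them. The summed level of the 5 listed was 2.46 to 3.54 CPM in the control libraries and 0.567 to 1.43 with ATRA. GP1BA, GP6, and PF4 were at 0 or 1 count in every library, and GP1BB fell from 89, 92, and 64 to 15, 3, and 5 counts (log2FC -3.82, standard error 0.375).

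NPNT, which encodes nephronectin, the ligand of α8, went the other way from its receptor gene. It rose from 0.870, 0.556, and 0.654 to 10.9, 10.04, and 11.6 CPM (log2FC 3.96, standard error 0.173, edgeR adjusted p = 1.81e-13) while ITGA8 fell.

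Among the α subunits that bind laminin, ITGA3 fell, ITGA7 did not pass the test, and ITGA6 was nearly unread. ITGA3, which pairs with β1 to bind the laminins of epithelial basement membranes, had 192, 186, and 185 CPM without ATRA and 114, 124, and 121 with it, a fall of 1.57-fold (log2FC -0.65, standard error 0.0557, edgeR adjusted p = 4.62e-09). ITGA7, the muscle laminin receptor subunit, had 0.934, 1.64, and 1.09 and 1.57, 1.496, and 1.23 CPM. Its groups overlapped and it did not pass the test (log2FC 0.23, standard error 0.258, edgeR adjusted p = 0.417), although it did under scaling by library size only (log2FC 0.71, edgeR adjusted p = 0.0182, with a range over its alternatives from 0.0182 to 0.824). ITGA6, the α subunit of hemidesmosomes, was read on 5, 5, and 13 control counts and 13, 9, and 7 ATRA counts and was not tested. Its hemidesmosomal partner ITGB4 had 0, 0, and 3 and 0, 0, and 0 counts.

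ITGA4, which binds fibronectin and the endothelial protein VCAM1, fell from 72.1, 83.3, and 78.5 to 20.2, 29.3, and 20.8 CPM (log2FC -1.73, standard error 0.113, edgeR adjusted p = 7.73e-10). ATRA replicate 2 was the highest of the treated libraries for this gene but stayed below every control library. ITGA9, a receptor subunit for tenascin C and osteopontin, was not tested, with 20, 10, and 21 counts without ATRA and 0, 1, and 5 with it. The ratio of its pooled CPM with ATRA to that without was 0.0873 (95% counting interval 0.0306 to 0.203), an interval that covers counting error only. Pooled CPM is the summed counts of a group over its summed scaled library sizes.

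Integrin α subunits known from leukocytes moved in opposite directions. ITGAX, the CD11c antigen of dendritic cells, fell from 13.5, 14.5, and 16.2 to 0.995, 2.11, and 1.18 CPM, or 10.3-fold (log2FC -3.36, standard error 0.187, edgeR adjusted p = 1.27e-11). ITGAE, the CD103 antigen of T cells within epithelia, rose from 1.10, 2.16, and 1.37 to 4.58, 3.40, and 3.89 CPM (log2FC 1.35, standard error 0.222, edgeR adjusted p = 2.08e-05), with control libraries of 34, 70, and 44 counts. GSG2 is annotated inside ITGAE and fell (log2FC -1.09), so the direction of ITGAE was not that of the nested gene. The row annotated as ITGAD did not pass the test (log2FC 0.49, standard error 0.340, edgeR adjusted p = 0.195), its groups overlapped, and ITGAM had at most 2 counts in any library. The β2 partner of ITGAX, ITGAD, and ITGAM was not analysed here. The leukocyte markers measured gave a mixed picture beside these genes. Of 9 listed, 4 were tested, with CD14 higher (log2FC 2.18, standard error 0.117) and CORO1A (44, 57, and 18 to 1, 1, and 1 counts) and LAPTM5 (17, 16, and 16 to 12, 10, and 4 counts) lower, of which 1 was lower with library size only. The summed level of the 9 was 7.96 to 10.2 CPM in the control libraries and 31.3 to 33.1 with ATRA, most of it from CD14, with means of 6.91 and 31.3 CPM. AIF1, CD3E, LCP1, and TYROBP had at most 7 counts in any library. The part of such cells in the values of ITGAX and ITGAE was not tested.

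The β subunits moved in both directions, with ITGB1 lower and ITGB3 and ITGB7 higher with ATRA. ITGB1, the β1 subunit common to most matrix receptors, had 2009.7, 2149, and 2080.2 CPM in the control libraries and 616, 733, and 656 in the ATRA libraries. It was 3.11-fold lower (log2FC -1.64, standard error 0.0676, edgeR adjusted p = 7.70e-14). ITGB3, the β3 partner of αv and αIIb, had 99.8, 100.2, and 103 CPM without ATRA and 281, 323, and 321 with it, which was 3.05-fold higher (log2FC 1.61, standard error 0.0623, edgeR adjusted p = 2.91e-14). Within libraries, the ITGB3 counts were 0.0497, 0.0466, and 0.0497 times those of ITGB1 in the control group and 0.457, 0.441, and 0.489 times with ATRA. That is a change of 9.49-fold (exact permutation test, two-sided, p = 0.1, adjusted p = 0.1 over 5 ratios, fixed by the choice of the genes). Relative to ITGAV, the change of ITGB3 was 10.7-fold, with the same p.

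ITGB7, the partner of αE and α4 in lymphocytes, rose from 29.5, 23.7, and 31.3 to 61.0, 53.6, and 59.2 CPM (log2FC 1.04, standard error 0.0902, edgeR adjusted p = 5.64e-09). The β8 subunit gene ITGB8, whose product binds latent TGF-β together with αv, had 42.4, 42.9, and 42.2 CPM in the control libraries and 25.5, 33.8, and 22.1 in the ATRA libraries. Its fall (log2FC -0.65, standard error 0.113, edgeR adjusted p = 7.10e-05) did not pass the test with library size only (log2FC -0.17, edgeR adjusted p = 0.199) or by R's t.test function, and its range of adjusted p over the alternatives was 4.29e-15 to 0.199. ITGB5, the β5 partner of αv, had 175, 163, and 166 and 142, 135, and 142 CPM. The difference was small (log2FC -0.27, standard error 0.0555, edgeR adjusted p = 0.000247) and turned to 0.21 with library size only. ITGB6, of epithelial cells, had 2, 1, and 1 counts without ATRA and 0, 0, and 0 with it.

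Read as receptors, both subunits fell in 9 of the testable pairs, or in 7 with library size only. Of 24 known α and β pairs, both genes were tested in 15. Both were lower in 9 of these, all of which contain ITGB1 or ITGAV, so the pairs are not independent of each other. With library size only the pairs of ITGAV with ITGB5 and with ITGB8 were no longer among them, and R's t.test function also lost the latter. Among the 12 α partners of β1, 9 were tested, and 7 were lower, 1 (ITGA10) was higher, and 1 (ITGA7) did not pass. Both genes were higher for the pairs of ITGA2B with ITGB3 and of ITGAE with ITGB7, the 2 pairs of this kind. In 3 pairs the genes moved in opposite directions, namely ITGA10 with ITGB1, ITGAV with ITGB3, and ITGA4 with ITGB7. Transcript counts do not show how many receptors were assembled.

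In the laminin α chains, LAMA4 fell and LAMA5 rose. LAMA4, the α4 chain of mesenchymal cells and vessels, had 467, 464, and 481 CPM in the control libraries. With ATRA it had 37.2, 44.3, and 40.4, which was 11.6-fold lower (log2FC -3.53, standard error 0.0686, edgeR adjusted p = 1.15e-18). LAMA5, the α5 chain of the basement membrane around the hair follicle, rose from 77.8, 75.8, and 85.2 to 109, 143, and 125 CPM (log2FC 0.65, standard error 0.0818, edgeR adjusted p = 9.37e-07). Its neighbour LOC108637403, also annotated as LAMA5, rose from 89.1, 82.9, and 92.1 to 156, 154, and 159.9 CPM (log2FC 0.83, standard error 0.0583, edgeR adjusted p = 2.47e-10). Neither was a DEG, and both were with library size only (log2FC 1.13 and 1.31). Reads shared by these rows could have been divided between them. LOC108637403 also overlaps ADRM1 in the annotation, which had mean counts of 2193 without ATRA and 3605 with it. ADRM1 was higher as well (log2FC 0.288), and the part of shared reads in the rise of LOC108637403 was not tested.

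The count ratio of LAMA5 to LAMA4 was 0.167, 0.164, and 0.177 in the control libraries and 2.92, 3.22, and 3.08 in the ATRA libraries. It changed by 18.2-fold (exact permutation test, two-sided, p = 0.1, adjusted p = 0.1 over 5 ratios, fixed by the choice of the genes). The other α chains were hardly read. LAMA1 and LAMA2 had at most 1 count in any library, and LAMA3, the epidermal α3 chain, had 1, 4, and 3 counts without ATRA and 10, 9, and 12 with it, a ratio of CPM of 2.88 (95% counting interval 1.29 to 7.24) by counting error only.

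In the β chains, LAMB1 rose while the main LAMB2 row fell. LAMB1, the β1 chain found in most basement membranes, had 261, 264, and 267 CPM in the control libraries and 946, 1008, and 1036 with ATRA. It was 3.78-fold higher (log2FC 1.92, standard error 0.0588, edgeR adjusted p = 8.68e-16), with every ATRA library above every control library. LOC102183372, annotated as LAMB2, the β2 chain of vessels, kidney, and the neuromuscular junction, had 684, 674, and 662 CPM without ATRA and 229, 218, and 234 with it. It was 2.96-fold lower (log2FC -1.57, standard error 0.0568, edgeR adjusted p = 1.06e-14). The count ratio of LAMB1 to this LAMB2 row went from 0.381, 0.392, and 0.403 to 4.13, 4.62, and 4.42, a change of 11.2-fold (exact permutation test, two-sided, p = 0.1, adjusted p = 0.1 over 5 ratios, fixed by the choice of the genes).

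A second row annotated as LAMB2, LOC102179246, moved against the first, on few reads. It had 4, 3, and 3 counts in the control libraries and 39, 47, and 33 with ATRA (log2FC 3.10, standard error 0.420, edgeR adjusted p = 2.11e-06), a CPM ratio of 8.83 (95% counting interval 4.64 to 18.9) by counting error. With 3 or 4 counts per control library, its fold change depends on the prior count, and with 1 added to both mean CPM values the log2FC was 0.80. The rows lie beside each other in the RefSeq annotation with another row, LOC106503428, between them, so reads on near-identical stretches are uncertain. LAMB3, the epidermal β3 chain, was barely read, with 2, 9, and 7 control and 15, 28, and 17 ATRA counts (log2FC 1.29, standard error 0.484, edgeR adjusted p = 0.021). This call was lost without Control replicate 1 (log2FC 0.90, edgeR adjusted p = 0.11), without ATRA replicate 2 (log2FC 0.99, edgeR adjusted p = 0.0945), with DESeq2, and by R's t.test function, and its adjusted p ranged from 0.00295 to 0.11 over the alternatives. LAMB4 was not tested, with 0, 0, and 1 counts without ATRA and 10, 5, and 8 with it, a CPM ratio of 17.1 (95% counting interval 2.77 to 703).

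Of the γ chains, LAMC1, the γ1 chain of most laminins, had 456, 451, and 490.5 CPM in the control libraries and 295, 323, and 313 in the ATRA libraries. Its fall was 1.502-fold (log2FC -0.59, standard error 0.0590, edgeR adjusted p = 4.07e-08) and was not past the threshold with library size only (log2FC -0.11, edgeR adjusted p = 0.0958, with a range over its alternatives from 1.73e-22 to 0.0958). LAMC3 fell from 0.999, 0.866, and 1.43 to 0.116, 0.0907, and 0.145 CPM (log2FC -3.20, standard error 0.403, edgeR adjusted p = 8.31e-07), on 5, 4, and 6 counts with ATRA, a CPM ratio of 0.106 (95% counting interval 0.0573 to 0.183). With 1 added to both mean CPM values its log2FC was -0.91, below the size of a DEG.

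Of 11 known laminin trimers, 4 could be read in full when LOC102183372 was taken for LAMB2. In the trimer of LAMA4, LAMB2, and LAMC1 all chains were lower, although LAMC1 was not past the threshold with library size only. The trimers of LAMA4 with LAMB1 and LAMC1, of LAMA5 with LAMB1 and LAMC1, and of LAMA5 with LAMB2 and LAMC1 held chains that moved in opposite directions. The epidermal chains LAMA3 and LAMB3 each had at most 28 counts in any library. The keratinocyte markers stood beside these at a summed level of 3.14 to 4.98 CPM in the control libraries and 5.37 to 5.92 with ATRA, most of it from KRT10. KRT14 had 20, 14, and 10 counts without ATRA and 3, 0, and 0 with it, and KRT5, KRT15, EPCAM, TP63, DSC3, and SFN had at most 7 in any library.

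The 11 members that were not tested had at most 21 counts in any library. A count of 0 in a library allows up to 3 counts, or 0.068 to 0.0967 normalized CPM at these depths, so small changes could not be detected for them. By counting error alone the ATRA to control ratio of CPM was 0.186 (95% counting interval 0.0336 to 0.687) for ITGA2 and 0.936 (95% counting interval 0.523 to 1.69) for ITGA6. The intervals of ITGA2, ITGA9, LAMA3, and LAMB4 lay to one side of 1, which compares the reads of these libraries and not the conditions.

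Around the integrins, the adhesion plaque list held genes of proteins that link them to actin together with signalling and regulatory proteins. Of its 38 genes, 35 were tested (median log2FC -1.36). Of these, 24 were lower (68.6%, beside 38.7% of all genes) and 6 higher (17.1%, beside 40.9%), and library size only gave 22 lower and 10 higher. Among genes with a mean of at least 1 CPM, the largest falls were in TGFB1I1, a paxillin relative (log2FC -4.42, standard error 0.0917), LIMS2, a partner of integrin-linked kinase (log2FC -4.34, standard error 0.168), the actin crosslinker ACTN1 (log2FC -3.33, standard error 0.0640), and TNS3, a tensin (log2FC -3.22, standard error 0.0704). The largest rises among the same genes were in the tensin TNS2 (log2FC 0.75, standard error 0.0647), the talin-binding KANK1 (log2FC 0.75, standard error 0.0675), the paxillin-binding GIT1 (log2FC 0.67, standard error 0.0773), and SHARPIN (log2FC 0.41, standard error 0.0692), an inhibitor of integrin activation. The core links TLN1, FERMT2, VCL, and ILK had a log2FC of -1.57, -1.72, -2.05, and -1.89, and PTK2, the focal adhesion kinase, of 0.16. These 5 were named after their values were seen.

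Membrane partners that sit beside integrins were 7 lower (70%, beside 38.7% of all genes) and 2 higher (20%, beside 40.9%) of 10 (median log2FC -0.57). With library size only, 5 were lower and 3 higher. CAV1, the coat protein of caveolae, fell most (log2FC -3.98, standard error 0.0677), then the tetraspanin TSPAN4 (log2FC -2.17, standard error 0.0849), BSG, an immunoglobulin-like membrane protein (log2FC -1.01, standard error 0.0642), and the tetraspanin CD81 (log2FC -0.67, standard error 0.0606). SLC3A2, which binds β subunit tails, rose (log2FC 1.00, standard error 0.0599), as did the tetraspanin CD9 (log2FC 0.79, standard error 0.0554).

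Ligands of integrins other than laminin were lower for 12 of 14 tested (85.7%, beside 38.7% of all genes) and higher for 1 (7.14%, beside 40.9%). Their median log2FC was -2.35, and 92.9% were DEGs beside 31% of all genes. The matrix proteins TNC (log2FC -8.72, standard error 0.0806), POSTN (log2FC -7.83, standard error 0.0917), EDIL3 (log2FC -6.48, standard error 0.109), and THBS1 (log2FC -6.19, standard error 0.103) fell most, and NPNT, described with ITGA8, was the one that rose. The fibronectin gene FN1 had a log2FC of -1.91, beside -0.71 for its receptor subunit ITGA5. FN1 was named after its value was seen.

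Partners of laminin in the basement membrane were lower for 11 of 15 tested (73.3%, beside 38.7% of all genes) and higher for 3 (20%, beside 40.9%). Their median log2FC was -1.82, and with library size only 10 were lower and 5 higher. COL4A4, a basement membrane collagen on 8, 2, and 4 counts without ATRA and 17, 11, and 15 with it, passed narrowly (edgeR adjusted p = 0.0494) with overlapping groups, and the number higher was 2 in 10 of 14 alternatives, the replicate block among them. Among genes with a mean of at least 1 CPM, the largest falls were in SPARC, which binds collagen (log2FC -3.61, standard error 0.0642), NID1, the nidogen that ties laminin to collagen (log2FC -2.11, standard error 0.0634), the SPARC relative SMOC2 (log2FC -2.001, standard error 0.0764), and HSPG2, the proteoglycan perlecan (log2FC -1.90, standard error 0.0641). NTN4, a netrin that binds laminin γ chains, rose from 11.9, 14.2, and 12.7 to 267, 302, and 269.7 CPM (log2FC 4.43, standard error 0.0791, edgeR adjusted p = 3.92e-19). COL18A1, a collagen of the basement membrane zone, also rose (log2FC 1.26, standard error 0.229). In the same libraries LAMB1 and LAMA5 were higher.

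Receptors of laminin other than integrins were 8 lower (53.3%, beside 38.7% of all genes) and 3 higher (20%, beside 40.9%) of 15 tested (median log2FC -0.18). This split turned to 5 lower and 9 higher with library size only. BCAM, the Lutheran antigen that binds the laminin α5 chain, rose from 4.93, 5.29, and 4.45 to 56.2, 49.8, and 54.4 CPM (log2FC 3.45, standard error 0.0929, edgeR adjusted p = 1.20e-16), beside the rise of LAMA5. DMD, the gene of dystrophin (log2FC -3.15, standard error 0.107), and the sarcoglycans SGCD (log2FC -2.02, standard error 0.0810), SGCE (log2FC -1.19, standard error 0.0533), and SGCB (log2FC -0.96, standard error 0.0683) fell most. RPSA, a ribosomal protein also called laminin receptor (log2FC 0.35, standard error 0.0690), and POMT2, which glycosylates dystroglycan (log2FC 0.80, standard error 0.0875), rose. DAG1, the dystroglycan core, had a log2FC of -0.19 (standard error 0.0600) and was named after its value was seen.

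**Figure D2:**
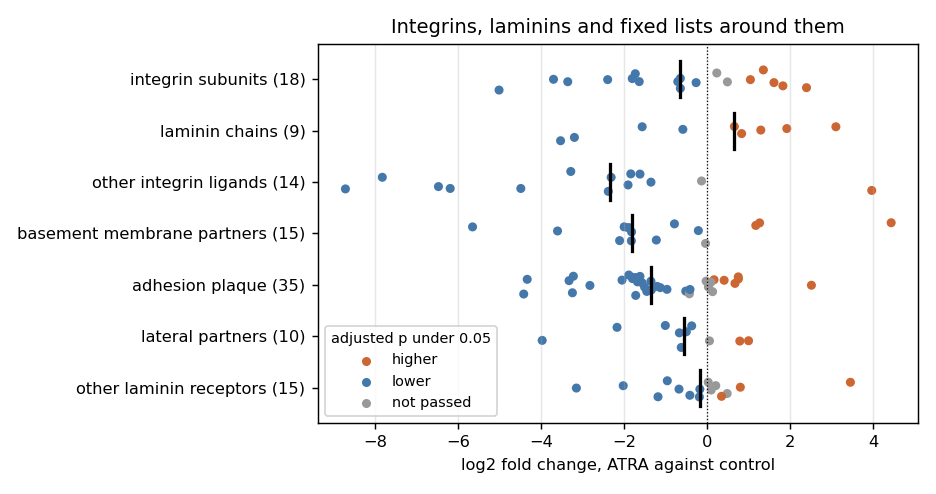
Each point is a tested gene placed by its log2FC, with orange for higher, blue for lower, and grey for not passed at an adjusted p under 0.05, and the black line is the median of a row, whose number of genes is in brackets. The integrin median of -0.65 and the laminin median of 0.65 stand above the medians of -2.35, -1.82, and -1.36 of the other ligands, the basement membrane partners, and the adhesion plaque. Requiring a CPM of at least 1 in 3 libraries, which is not drawn, put the laminin median at 0.0469. The integrin median lies below those of -0.57 for the membrane partners, labelled lateral partners, and -0.18 for the other laminin receptors. The vertical spread within a row carries no value.

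The markers of the culture moved with the same contrast. All 9 mesenchymal genes and all 7 of the dermal papilla genes that were tested were lower with ATRA, beside 38.7% of all genes. Of the 14 dermal papilla genes listed, the others had few reads. Among them SOX2 had 5, 0, and 2 counts without ATRA and 10, 16, and 9 with it. NOG had 8, 2, and 8 and 13, 11, and 9 counts, and CRABP1 8, 3, and 1 and 3, 1, and 0. Without a filter 1 dermal papilla gene was higher. The summed levels of these lists were 85600 to 86800 and 8510 to 9450 CPM in the control libraries and 4790 to 5110 and 161 to 167 with ATRA. Scaling by library size only left 8 and 5 of them lower and turned 1 dermal papilla gene to higher. Smooth muscle markers were lower for 3 of 4, at 226 to 262 CPM without ATRA and 42 to 44.6 with it, and melanocyte markers were at 3.8 to 4.3 and 1.97 to 2.34. Endothelial markers summed to 0.903 to 1.24 CPM without ATRA and 6.19 to 9.16 with it. Most of the level with ATRA came from PECAM1, which had 0, 0, and 0 counts without ATRA and 242, 340, and 206 with it. TEK was also higher, with 23, 22, and 14 and 57, 50, and 39 counts, and VWF did not pass the test. KDR had 5, 6, and 10 counts without ATRA and 2, 1, and 0 with it, and CDH5 had at most 1 count. The part of these shifts in the integrin and laminin values was not tested.

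ITGB5 was the one tested member whose direction turned under any setting tried. Leaving out ATRA replicate 2, the library that differed most from the others of its group (chi-square per degree of freedom of 18 and 19.2, beside 5.17 for the other pair), gave 9 members higher and 15 lower, with LAMB3 the call that was lost.

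**Figure D3:**
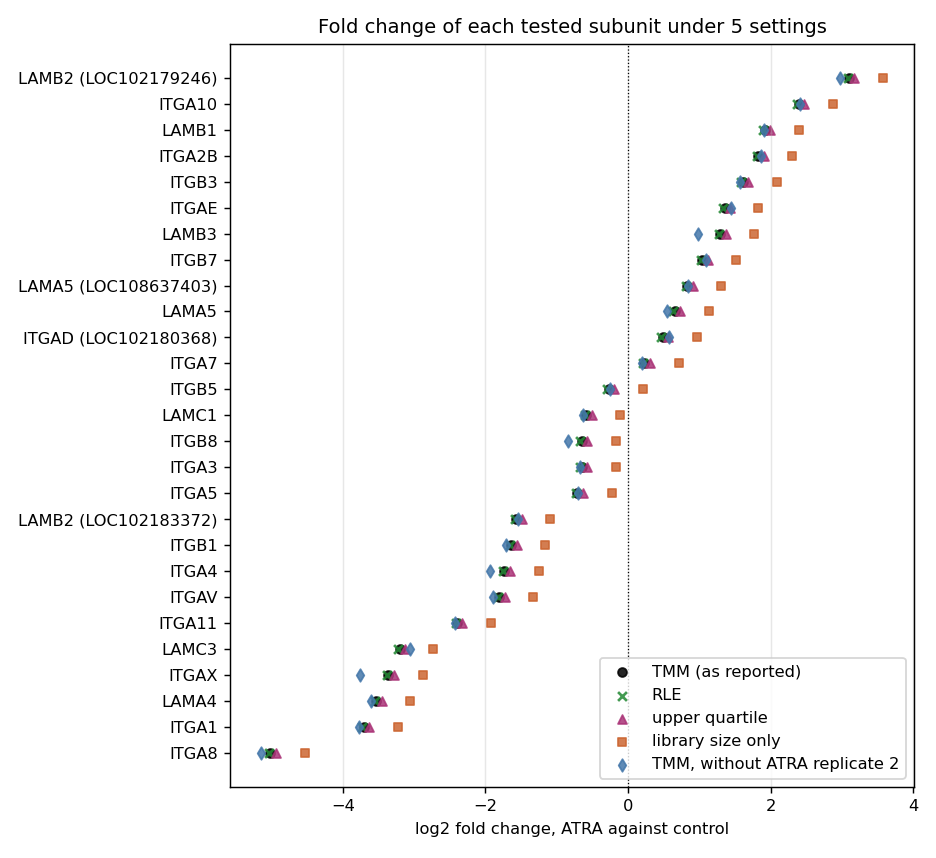
Rows are the 27 tested genes in the order of their log2FC, and symbols are the log2FC under 5 settings on the horizontal axis, with TMM, RLE, or upper-quartile factors, library size only, and TMM without ATRA replicate 2. Scaling by library size only moves each gene to the right and carries ITGB5 across 0, and ITGAX, ITGA4, ITGB8, and LAMB3 are among the genes moved by leaving out ATRA replicate 2.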

How the data were processed

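Poly(A) RNA was sequenced, and the authors cleaned reads with fastp and TrimGalore and deposited counts of reads per gene, whole numbers without normalization. The submitters' processing notes name HISAT2, featureCounts, and DESeq2. The genome build, annotation, and counting options are not given in the sources used here, so no coordinates are printed. No sequence or transcript length was used, so levels of different genes are not compared.

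All genes passing edgeR's expression filter were scaled by TMM and tested between the groups with edgeR's quasi-likelihood test (robust, two-sided, no covariate), and p-values were adjusted by Benjamini-Hochberg across 12588 genes. Normalized CPM used the library total over these genes times its TMM factor. Standard errors were the absolute log2FC over the square root of F. Counting intervals (95%, exact binomial on summed counts) and floors of 3 counts cover counting error only. The CPM ratios given with these intervals were pooled, as summed counts over summed scaled library sizes, ATRA over control. With 3 cultures per group, p-values measure the spread between these libraries. Total counts ranged from 35532339 to 38012771. Every sample column was used. DESeq2, R's t.test function, other scalings, filters, and thresholds, a block for the replicate number, and fits without 1 library were alternatives. R's t.test function, which the study's methods name, was run on the log2 of normalized CPM plus 1.

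The members and lists (adhesion plaque, membrane partners, other integrin ligands, basement membrane partners, other laminin receptors, and cell type markers) were chosen with earlier results of these data known. Every member was named except 1, which is not reported here. From each list up to 4 genes in each direction were named by absolute log2FC, among those past the threshold whose groups did not overlap and whose mean reached 1 CPM. CCN1 and CCN2 were matched by their older symbols. The tests were also run on simulated data in which few genes changed, as many up as down. That setting cannot check the scaling of these libraries, in which 79.7% of all genes passed. Versions were R 4.3.3, edgeR 4.0.16, DESeq2 1.42.0, Python 3.11.15, and matplotlib 3.10.9.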

Additional observations from a re-analysis of the deposited data

How the results depend on the processing

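Among the 27 tested members, 1 result reversed: ITGB5 had a log2FC of 0.21 with library size only. The number of DEGs that were higher moved from 8 to 5 by R's t.test function, whose log2FC was taken after adding 1 to CPM. On that scale ITGAE, LOC102179246, and LAMB3 had a log2FC of 0.98, 0.80, and 0.30, below the size of a DEG. With an absolute log2FC above 2 the number of higher DEGs was 2, and 6 were lower in place of 10. Without a filter 11 members were higher and 17 lower, and a CPM of at least 1 in 3 libraries gave 8 and 14. Leaving out each library gave 9 to 10 members higher and 15 lower, and 7 to 8 DEGs higher and 10 lower. With the replicate block 10 members were higher and 15 lower, and it changed no call of a member. Whether same-numbered libraries share an animal is not stated, and the numbers were not taken as pairs, because the study's methods describe no pairing. Deviations of the same-numbered libraries correlated across genes at 0.189, -0.00655, and -0.159, and those of differently numbered libraries at -0.242 to 0.246. These values bear on the numbering only and cannot show whether libraries of the 2 groups share an animal. LAMB3, ITGB8, and LAMC1 lost their call under the settings given with them, and ITGA7 and ITGAD passed with library size only (log2FC 0.71 and 0.96). The planned shares of chains per length were not run, because the reference lengths are gene spans with introns. Few counts limited the 11 members not tested.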

Other observations

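Another row described as laminin β2, LOC106503428, has no gene symbol in the annotation and was not among the members. It lies between LOC102179246 and LOC102183372 in the RefSeq order and overlaps LOC102179246. It had 1, 3, and 4 counts in the control libraries and 37, 42, and 26 with ATRA (log2FC 3.23, standard error 0.479, edgeR adjusted p = 6.38e-06), the direction of LOC102179246 and not of LOC102183372, the row with most of the LAMB2 reads.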
